A study of Homo sapiens with 6 samples.

Results

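Microtubule-associated proteins bind the microtubule lattice or its growing ends, and stathmin binds free tubulin, and together they set how stable a cell's microtubules are. The data hold RNA levels of 8 such genes in Huh7, an established human hepatocellular carcinoma line, with and without silencing of SETD5, which encodes a SET-domain chromatin protein. The 8 genes are MAP1B, MAP1S, MAP4, MAP7, STMN1, MAPRE1, MAPRE2 and MAPRE3, taken by symbol, and all 8 had a row among the 14200 genes of the table. They were chosen by their place in this gene family with results of the knockdown contrast in view, in which MAP1B has the rank 13 of 12865 from the highest log2 difference downwards. The differences of the 8 genes between knockdown and control are therefore given as a description, with no test.

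The series has 2 groups of 3 libraries. The control libraries come from Huh7 cells with the genotype label "control", and the labels do not say which siRNA, if any, these cells received. The knockdown libraries come from Huh7 cells transfected with siRNA against SETD5 and labelled as SETD5-deficient. Both groups share the line, the medium with fetal bovine serum and the stranded poly(A) library kit, and no time after transfection is given. Nothing in the labels ties the libraries to separate cultures, so a p-value here covers the spread among these 6 libraries and that spread may be technical.

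Values are CPM, the authors' scaled read counts, recovered from the deposited log2(CPM + 1) values. The CPM of a library summed to 993401 (knockdown 3) up to 1004330 (knockdown 2). Scaling to library size alone is therefore not assumed, and the scaling used is not stated. Each library held 14038447 to 17095417 reads. SETD5 itself was at 212, 210 and 202 CPM in the controls and at 136, 140 and 138 CPM after knockdown, so every knockdown library was below every control library. Its mean was 0.664 times the control, with a limma adjusted p of 1.15e-17 and an exact two-sided permutation p of 0.1, the smallest that 3 against 3 libraries allow. All 10 hepatocyte markers checked had a row, with a summed level of 45384 to 46302 CPM in the controls and 42042 to 42438 CPM after knockdown. AFP made up the largest part, at 21336 and 20268 CPM on average. By limma, 2 of the 10 were called higher and 7 lower, where 25.7% of all tested genes were called higher and 26.5% lower. Among the 7, TTR fell to 0.619 times and APOB to 0.682 times the control, while of the 2, FGB rose to 1.18 times. Of 12 neuron markers 6 had a row, and their sum was 32.0 to 33.3 CPM in the controls and 31.0 to 34.7 CPM after knockdown, mostly SNAP25. Within it, SYT1 fell to 0.638 times the control (limma adjusted p = 2.00e-05), while INA, below the filter and not tested, was at 0.243 and 1.73 CPM on average with no overlap. Fibroblast markers (5 of 8 with a row) summed to 187 to 198 CPM and 326 to 337 CPM, mostly COL1A2, with 3 called higher and 2 lower. COL1A2 was at 135 and 282 CPM on average, while COL1A1 fell to 0.659 times and PDGFRB to 0.722 times the control. Immune markers (4 of 6) summed to 261 to 287 CPM and 629 to 707 CPM. The immune sum was mostly LYZ, at 260 and 649 CPM on average, while PTPRC, the general leukocyte marker, was at 1.13 and 1.59 CPM. By limma 1 of the 4 immune markers was called higher and 1 lower. The lower one was CD14, at 3.62 and 1.76 CPM on average (limma adjusted p = 8.30e-06). The part of these marker shifts in the results below was not tested.

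Microtubules grow and shrink at their ends by adding and losing tubulin. Structural microtubule-associated proteins such as MAP4 and the MAP1 family bind along the wall and generally stabilise it. The end-binding proteins encoded by the MAPRE genes sit on the growing plus end and recruit other factors there. Stathmin, encoded by STMN1, sequesters tubulin and promotes shrinkage, and its phosphorylation in mitosis switches it off. Hepatocytes rely on microtubules for the secretion of plasma proteins, MAP4 is the broadly expressed structural protein outside neurons, and MAP1B is best known from developing neurons.

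Between the groups the 8 genes fell into 3 kinds. MAP1B was 3.70 times and STMN1 1.41 times the control, the lattice proteins MAP1S and MAP4 and the end-binding MAPRE2 differed by smaller amounts, and MAP7, MAPRE1 and MAPRE3 had overlapping groups. The 2 groups were fully separated in 5 of 8 genes (62.5%), 4 of them higher and 1 lower after knockdown, where 57.3% of all 12865 tested genes had groups without overlap. The median log2 difference of the 8 genes was 0.022, beside -0.0012 for all tested genes, and 4 of the 8 had a lower mean after knockdown. All 8 genes passed the filter of a mean of 1 CPM over the 6 libraries. The plot of levels by library shows these values.

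**Figure D1:**
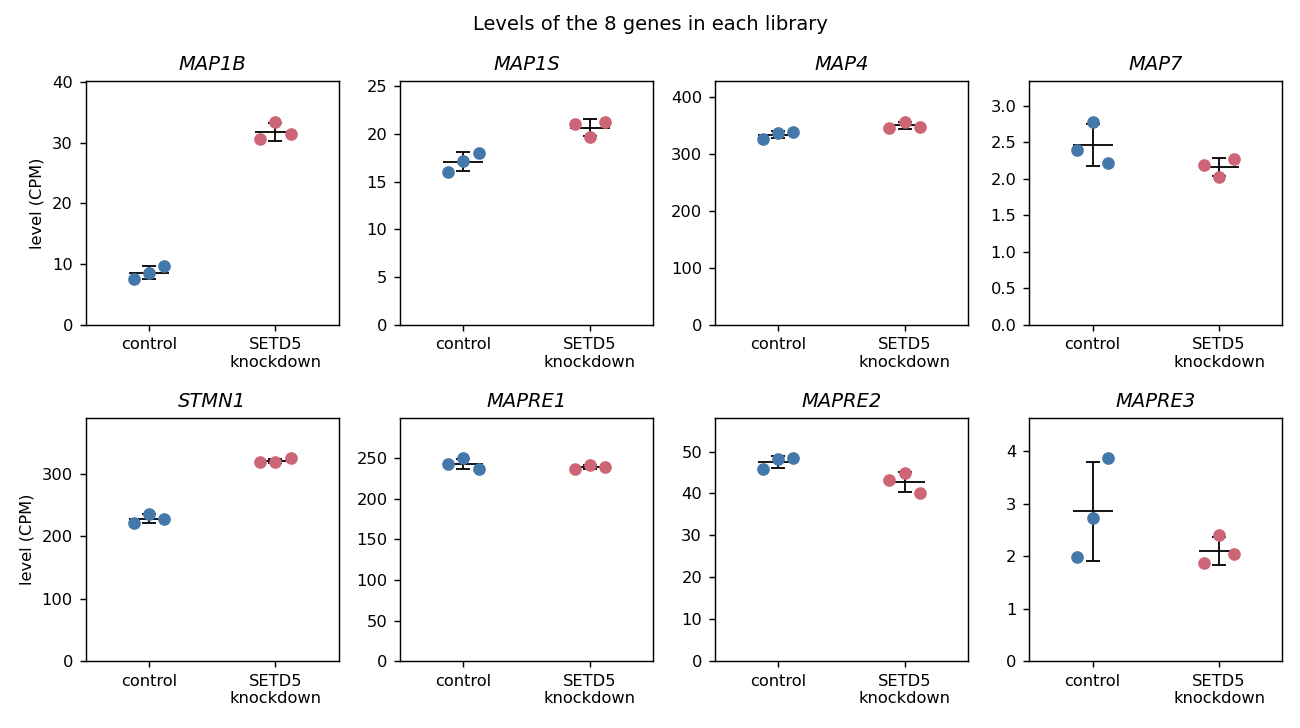
Level in CPM (vertical axis, from 0) of each of the 8 genes in the 3 control and 3 knockdown libraries, with points for libraries, a dash for the mean and bars for the SD. MAP1B lies at 7.55 to 9.65 CPM in the controls and at 30.6 to 33.4 CPM after knockdown, while the MAPRE1 groups overlap.

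MAP1B encodes a large lattice-binding protein that is cut into a heavy and a light chain. It was at 7.55, 8.57 and 9.65 CPM in controls 1 to 3 and at 30.6, 33.4 and 31.3 CPM in knockdown libraries 1 to 3. The lowest knockdown library was thus more than 3 times the highest control library. These levels rest on 123 to 135 reads per control library and 490 to 545 reads per knockdown library. The means were 8.59 ± 1.05 CPM and 31.8 ± 1.47 CPM (SD, n = 3 each), a log2 difference of 1.78 with a standard error of 0.078. On this scale the pseudocount of 1 lowers the difference, and voom on the recovered reads gave 1.91.

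Because MAP1B had the largest difference of the 8 genes, the sequence before its start is shown. It is the RefSeq promoter window of GRCh38.p14, from 250 bases before to 50 bases after the start, at chr5:72107225-72107524 on the plus strand. Capitals mark the words TATAAA and GGGCGG, searched on both strands.
MAP1B promoter: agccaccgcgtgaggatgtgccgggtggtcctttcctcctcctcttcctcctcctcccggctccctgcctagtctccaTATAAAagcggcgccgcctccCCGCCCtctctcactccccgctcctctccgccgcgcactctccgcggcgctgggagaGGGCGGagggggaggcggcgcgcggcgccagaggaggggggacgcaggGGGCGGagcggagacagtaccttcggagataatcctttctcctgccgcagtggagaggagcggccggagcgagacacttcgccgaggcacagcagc
The window holds TATAAA 1 time and GGGCGG 3 times, and 70% of its bases are G or C. Among the 35116 promoter windows of the same table, 11.5% hold TATAAA and 45% hold GGGCGG, with a median of 58.7% G or C. These counts take no account of where in the window a word lies. The word CCAAT, held by 34.6% of all windows, does not occur in these letters, nor does the E-box word CACGTG, held by 7.26%, nor the E2F word TTTGGCGC, held by 0.652%. These words were picked after the sequences had been seen, and of the 8 genes MAPRE1 is the other one with TATAAA in its window.

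The 3′ ends of the messages were searched for GCACCT, a word that an earlier analysis of these same data had picked out, so that it is no independent evidence here. In 1 GENCODE 29 transcript per gene, the 3′ UTRs of 2 of the 8 genes hold it, MAP1B and MAPRE2, and those of 28.7% of the 11527 tested genes with a 3′ UTR do. The sites are shown because these 2 genes differed in opposite directions. Capitals mark the word, and positions are counted from the first base after the stop codon.
MAP1B, 1138 to 1143 of 4331 bases: tcccacttcagtGCACCTgtggcctctcag
MAPRE2, 1924 to 1929 of 3101 bases: caataactctatGCACCTgatactgcagtg
MAPRE2, 2396 to 2401 of 3101 bases: tcctcttaggctGCACCTccagcctctgca
MAP1B, with 1 site, was at 3.70 times the control and MAPRE2, with 2 sites, at 0.901 times. STMN1, MAP1S, MAP4, MAP7, MAPRE1 and MAPRE3 have no GCACCT in the 3′ UTR searched.

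MAP1S, a smaller and broadly expressed relative of MAP1B with roles in autophagy, was at 16.0, 17.2 and 18.01 CPM in the controls. After knockdown it was at 21.1, 19.6 and 21.3 CPM. Its groups did not overlap, but the gap between them was narrower than the range within either. The means of 17.1 ± 0.987 and 20.7 ± 0.896 CPM (SD, n = 3 each) give a ratio of 1.21 and a log2 difference of 0.26 (standard error 0.070).

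MAP1A, the remaining large member of the MAP1 family, was low in both groups, at 3.05 and 3.39 CPM, and did not pass the limma test (adjusted p = 0.481). Scaled by transcript length, the 3 MAP1 genes could be set against each other. MAP1S made up 82.0 to 84.4% of the family's CPM per kb in the controls and 64.4 to 68.6% after knockdown. The share of MAP1B went from 11.1 to 12.5% to a range of 28.3 to 31.1%. MAP1S was thus the highest of the 3 genes in all 6 libraries, and the family's sum was 6.01 ± 0.394 CPM per kb in the controls and 9.02 ± 0.111 CPM per kb after knockdown (SD, n = 3 each). The shares depend on the transcript taken for each gene, 12036 bases for MAP1B and 3419 bases for MAP1S.

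MAP4, the main structural protein of non-neuronal microtubules, was at 326, 337 and 338 CPM in the controls and at 345, 356 and 347 CPM after knockdown. Every knockdown library was above every control library, by little. The means were 333 ± 6.59 and 350 ± 5.90 CPM (SD, n = 3 each), a ratio of 1.05 and a log2 difference of 0.068 (standard error 0.028). With 4729 to 5810 reads per library, counting alone gives a CV of at most 1.45%.

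MAP7, which links microtubules to kinesin-1 and is typical of epithelial cells, was scarce. It was at 2.40, 2.79 and 2.22 CPM in the controls and at 2.19, 2.03 and 2.27 CPM after knockdown. The groups overlapped, and the values rest on 31 to 41 reads per library, for which counting alone gives a CV of 15.6 to 18%. Its log2 difference was -0.13, with a 95% confidence interval of -0.40 to 0.14, and it was -0.065 without control replicate 2.

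STMN1, the tubulin-sequestering protein stathmin, was at 221, 236 and 227 CPM in the controls and at 319, 319 and 325 CPM after knockdown. The groups stood apart by a gap several times wider than the spread within either. The means were 228 ± 7.64 and 321 ± 3.24 CPM (SD, n = 3 each), a ratio of 1.41 and a log2 difference of 0.49 (standard error 0.030). This lies just above the range from -0.51 to 0.45 that holds the middle 90% of tested genes. STMN1 is also known as a gene of dividing cells. Of 11 proliferation markers 4 rose and 1 fell by limma (36.4% and 9.09%, beside 25.7% and 26.5% of all tested genes), with a sum of 2653 to 2736 CPM in the controls and 2876 to 2991 CPM after knockdown, and their part in the level of STMN1 was not tested.

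Set against MAP4 within the same library, which removes any scaling between libraries, STMN1 stood at a ratio of CPM of 0.678, 0.702 and 0.672 in the controls. After knockdown the ratio was 0.924, 0.896 and 0.934. The groups did not overlap, and the mean ratio was 1.34 times the control. STMN3, the other member of the stathmin family with a row, was at 17.6 ± 0.580 and 18.02 ± 0.482 CPM (SD, n = 3 each) and did not pass limma (adjusted p = 0.752).

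The 3 end-binding genes all had a lower mean after knockdown, but only MAPRE2 had groups without overlap. MAPRE1 encodes EB1, the main plus-end tracker of dividing cells, and was at 242, 250 and 237 CPM in the controls and 236, 241 and 240 CPM after knockdown. Of the knockdown libraries, 2 lay within the control range and 1 just below it. Its log2 difference was -0.024, with a 95% confidence interval of -0.084 to 0.036, on 3317 to 4141 reads per library. It was -0.0044 without control replicate 2 and -0.042 without control replicate 3.

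MAPRE2, which encodes EB2, was at 45.8, 48.1 and 48.4 CPM in the controls and at 43.2, 44.8 and 40.2 CPM after knockdown. All knockdown libraries were below all controls, but the nearest libraries, control 1 and knockdown 2, lay close together. The means were 47.4 ± 1.39 and 42.7 ± 2.34 CPM (SD, n = 3 each), a ratio of 0.901 and a log2 difference of -0.15 (standard error 0.049).

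MAPRE3, which encodes EB3 and is best known from neurons and muscle, was at 1.99, 2.72 and 3.86 CPM in the controls and at 1.88, 2.39 and 2.03 CPM after knockdown. The controls spread widely, with a CV of 33.0%, and overlapped with the knockdown libraries. With 30 to 54 reads per library, the log2 difference of -0.29 had a 95% confidence interval of -0.59 to 0.010. It was -0.11 without control replicate 3 and -0.46 without control replicate 1. Per kb of transcript, MAPRE1 made up 87.1 to 88.7% of the family in the controls and 88.6 to 89.7% after knockdown, so the groups overlapped. MAPRE2 made up 10.3 to 10.9% and 9.26 to 10.1%, and MAPRE3 at most 1.97% in any library.

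**Figure D2:**
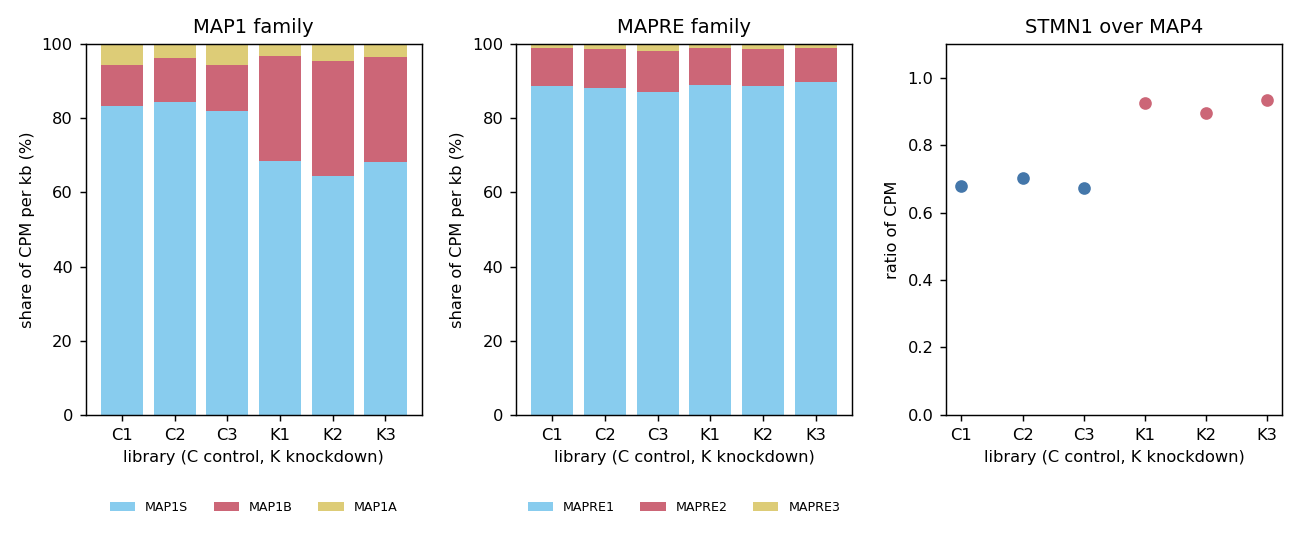
Share of CPM per kb of transcript (left and middle, in %) of each gene within the MAP1 and MAPRE families, and the ratio of STMN1 to MAP4 CPM (right), for control libraries C1 to C3 and knockdown libraries K1 to K3. The MAP1B share is 11.1 to 12.5% in the controls and 28.3 to 31.1% after knockdown, while the MAPRE shares move by little.

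Per kb of transcript, STMN1 had the highest level of the 8 genes in the controls, at 133 ± 4.46 CPM per kb (SD, n = 3). MAPRE1 followed at 92.7 ± 2.44, MAP4 at 64.9 ± 1.28, MAPRE2 at 11.1 ± 0.327 and MAP1S at 4.997 ± 0.289 CPM per kb. The lowest were MAPRE3 at 1.51 ± 0.498, MAP1B at 0.714 ± 0.087 and MAP7 at 0.594 ± 0.070 CPM per kb. In the controls the ranges of MAP1B and MAP7 overlapped, although MAP1B was the higher of the pair within each library. After knockdown the order was the same except that MAP1B, at 2.64 ± 0.122 CPM per kb, lay above MAPRE3 at 1.11 ± 0.140. MAP1B thus moved from the seventh to the sixth place, below MAP1S, at 6.04 ± 0.262 CPM per kb.

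By Euclidean distance of the log2(CPM + 1) values around each gene's own mean over the 6 libraries, the gene nearest to MAP1B was the noncoding RNA LINC01279, at a distance of 0.219. STAT4 (0.280), PLCXD3 (0.327), the alpha-tubulin TUBA1A (0.335) and the matrix proteoglycan VCAN (0.354) came next. The nearest genes are picked for their pattern, so sharing it is no separate result, here and for MAPRE3 below. Each of the 5 was 2.93 to 4.71 times the control after knockdown, and VCAN was the most abundant of them, at 64.8 ± 2.97 and 190 ± 8.83 CPM (SD, n = 3 each). TUBA1A went from 13.4 ± 1.32 to 50.9 ± 1.64 CPM and the neuronal-type beta-tubulin TUBB3 from 27.3 ± 2.37 to 112 ± 3.17 CPM. These 2 were named for their pattern or values, and they are the highest differences of 11 tubulin isotypes. Of the 11, 4 were called higher and 5 lower (36.4% and 45.5%, beside 25.7% and 26.5% of all tested genes). TUBB4A, counted among the 4, was at 0.941 and 2.04 CPM and passed the filter only through its knockdown libraries, so its call is not a free test. The 5 called lower include the abundant TUBA1B, TUBB and TUBB4B. The summed level of the 11 was 4840 to 4989 CPM in the controls and 4587 to 4694 CPM after knockdown. Reads of alpha-tubulin genes can be split between near-identical copies, so the level of TUBA1A is uncertain. For MAPRE3, the gene with the lowest difference of the 8, the nearest were C16orf86, LOC101928673, MAATS1, OGDHL and LRTOMT, at distances of 0.149 to 0.241, each with its highest value in control 3.

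**Figure D3:**
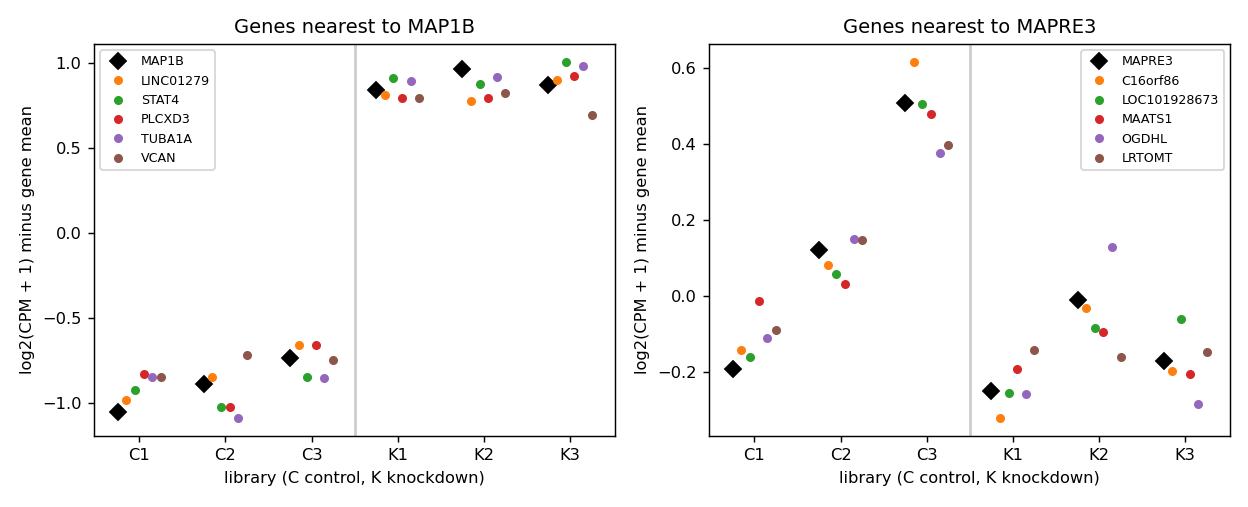
log2(CPM + 1) minus each gene's mean (vertical axis) in control libraries C1 to C3 and knockdown libraries K1 to K3, for MAP1B (left, diamonds) and MAPRE3 (right, diamonds) with their 5 nearest genes. Picked for nearness, the genes around MAP1B separate the groups as it does, and those around MAPRE3 share its high value in control 3.

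Other regulators of microtubules were read from 9 lists with 143 genes in the table, of which 138 were tested and none is one of the 8 genes. By limma at an adjusted p under 0.05, 52 rose and 31 fell, which is 37.7% and 22.5% of those tested. Of all 12865 tested genes, 25.7% were called higher and 26.5% lower, 52.1% in all. The median log2 difference of the 138 genes was 0.056. The plot of regulator genes by list shows that the calls run in both directions in every list with calls.

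**Figure D4:**
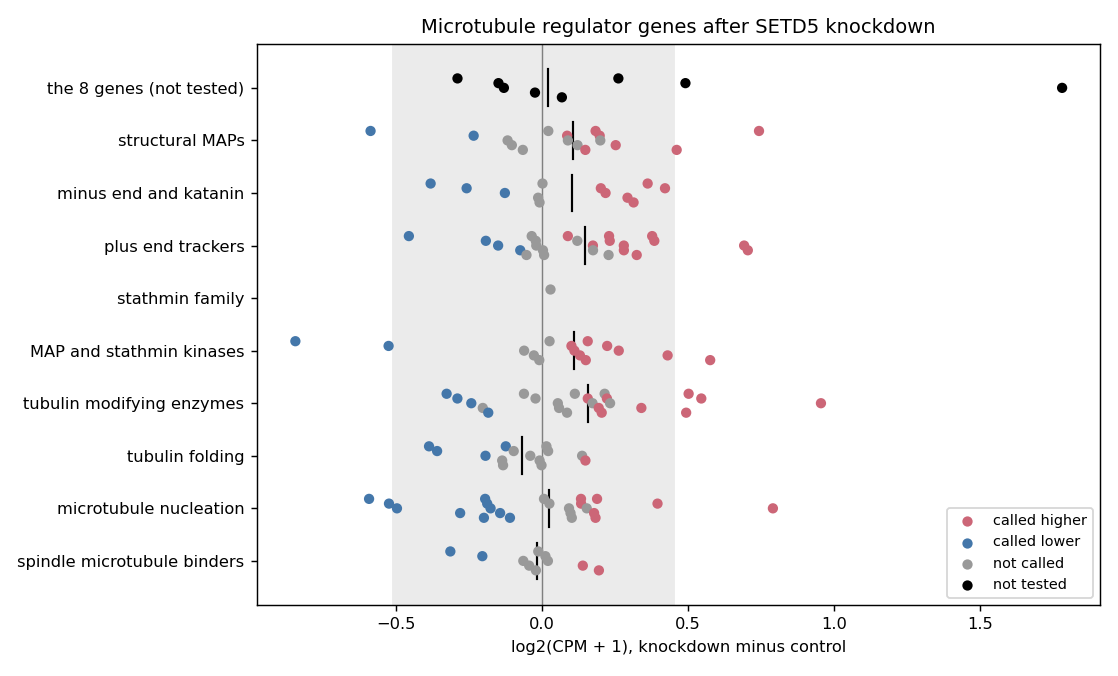
Difference in log2(CPM + 1), knockdown minus control (horizontal axis), for the 8 genes (black, not tested) and the tested genes of 9 regulator lists, coloured by the limma call. Black bars are list medians and the grey band holds the middle 90% of all tested genes, from -0.51 to 0.45. MAP1B, at 1.78, lies outside the range of every list.

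Among the other structural proteins, 7 of 16 tested genes rose (43.8%) and 2 fell (12.5%), beside 25.7% and 26.5% of all tested genes. Their median was 0.11. MAP2, a dendritic protein of neurons, rose from 1.60 ± 0.210 to 3.37 ± 0.699 CPM (SD, n = 3 each, limma adjusted p = 2.51e-05), on low levels. EML6 rose to 1.39 times the control, and MTUS1, the most abundant of the list, from 244 ± 1.61 to 280 ± 9.09 CPM. EML2 went the other way, from 27.9 ± 1.88 to 18.2 ± 1.73 CPM (limma adjusted p = 6.46e-09).

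Of 12 tested genes for minus-end binding and severing, 6 rose and 3 fell (50% and 25%, beside 25.7% and 26.5% of all tested genes). CAMSAP1, which binds free minus ends, rose from 68.2 ± 3.26 to 91.6 ± 0.573 CPM (SD, n = 3 each, limma adjusted p = 3.88e-11). The katanin-related KATNBL1 rose to 1.30 times the control. FIGN, the severing enzyme fidgetin, fell from 23.5 ± 2.02 to 17.8 ± 0.807 CPM. ASPM, a spindle-pole protein, was at 231 and 230 CPM without passing.

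In the list drawn up for the plus end, 11 of 24 tested genes rose and 4 fell, with a median of 0.15. These are 45.8% and 16.7%, beside 25.7% and 26.5% of all tested genes. CLIP1, which encodes the plus-end linker CLIP-170, fell from 119 ± 3.66 to 86.5 ± 1.502 CPM (SD, n = 3 each, limma adjusted p = 4.56e-13). Its relative CLIP3 was at 0.880 ± 0.485 and 1.98 ± 0.248 CPM. CLIP3 passed the filter only through its knockdown libraries, so its call among the 11 is not a free test, and its log2 difference of 0.69 was 1.28 under voom. NAV1 rose from 1.52 ± 0.428 to 3.11 ± 0.783 CPM. TACC1, the most abundant gene of this list, fell from 445 ± 1.79 to 422 ± 2.88 CPM (limma adjusted p = 0.0167), a call that ended without control replicate 3 (adjusted p = 0.0556), without knockdown replicate 3 (0.0524) and without the mean-variance trend (0.109).

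Among kinases of microtubule-associated proteins or stathmin, 9 of 15 tested genes rose (60%) and 2 fell (13.3%), beside 25.7% and 26.5% of all tested. The 2 that fell were UHMK1, known to phosphorylate stathmin, from 106 ± 3.93 to 73.1 ± 1.55 CPM (SD, n = 3 each, limma adjusted p = 4.82e-14), and MAPK13, the p38 delta kinase that also phosphorylates stathmin, from 5.99 ± 0.801 to 2.88 ± 0.163 CPM. GSK3B, which phosphorylates MAP1B and tau, rose from 87.6 ± 0.684 to 105 ± 2.05 CPM. BRSK1 rose from 1.37 ± 0.056 to 2.53 ± 0.242 CPM, a log2 difference of 0.58 that was 0.88 under voom. Without control replicate 1 the count that rose was 5 in place of 9.

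Enzymes that modify tubulin rose in 9 of 23 tested genes and fell in 4, with a median of 0.16. These are 39.1% and 17.4%, beside 25.7% and 26.5% of all tested genes. VASH2, which removes the final tyrosine of alpha-tubulin, rose from 5.18 ± 0.766 to 10.9 ± 1.17 CPM (SD, n = 3 each, limma adjusted p = 8.69e-10). The acetyltransferase ATAT1 rose from 7.32 ± 0.753 to 10.8 ± 1.70 CPM, while HDAC6, which removes the same acetyl group, fell from 172 ± 1.11 to 141 ± 3.36 CPM (limma adjusted p = 1.35e-09). LRRC49, part of the polyglutamylase complex, rose to 1.64 times the control. VASH1, a relative of VASH2 counted among the 9, was at 0.686 and 1.39 CPM and, like CLIP3, passed the filter only through its knockdown libraries. Without knockdown replicate 2 the count that rose was 6. It was 7 without control replicate 2, control replicate 3 or knockdown replicate 3.

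Tubulin folding genes rose in 1 of 14 tested genes and fell in 4, with a median of -0.068. These are 7.14% and 28.6%, beside 25.7% and 26.5% of all tested genes. The cofactor TBCC fell to 0.753 times and the prefoldin subunit PFDN1 to 0.872 times the control, while PFDN5, the most abundant, was at 204 and 206 CPM without passing. The GTPase ARL2 fell from 7.03 ± 0.587 to 5.35 ± 1.31 CPM (SD, n = 3 each, limma adjusted p = 0.0119), and this call ended without knockdown replicate 1 (adjusted p = 0.201), without control replicate 3 (0.066) and without the mean-variance trend (0.0969). The count that rose was 2 under voom and without control replicate 3, and 0 without control replicate 2, knockdown replicate 1 or knockdown replicate 3.

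Nucleation genes rose in 7 of 23 tested genes and fell in 10 (30.4% and 43.5%, beside 25.7% and 26.5% of all tested genes). NINL, a centrosomal protein, rose from 38.1 ± 0.123 to 66.6 ± 2.62 CPM (SD, n = 3 each, limma adjusted p = 6.68e-17). The augmin subunit HAUS4 fell from 30.6 ± 1.06 to 19.98 ± 0.979 CPM, and gamma-tubulin TUBG1 from 110 ± 2.92 to 90.4 ± 1.37 CPM. MZT2B fell to 0.692 times the control, but it has a near-identical copy, MZT2A, so its level is uncertain. Without knockdown replicate 3, 6 rose and 6 fell. Under voom 10 rose and 9 fell, and without knockdown replicate 1, 8 rose and 7 fell. Which direction had more calls thus depended on the processing.

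Spindle binders rose in 2 of 10 tested genes and fell in 2 (20% and 20%, beside 25.7% and 26.5% of all tested genes). TPX2, an activator of Aurora A, rose from 438 ± 14.7 to 501 ± 11.2 CPM (SD, n = 3 each), while SPAG5 fell from 344 ± 3.03 to 299 ± 4.08 CPM and HMMR from 48.2 ± 0.874 to 38.6 ± 2.88 CPM.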

How the data were processed

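The authors deposited 1 table with 14200 genes and 1 column per library, holding log2 values of normalized CPM. The submitters' processing notes name STAR 2.5.1, R 3.3.0 and the builds hg19 and mm10, with no role for each. For the counter, the scaling, the use of strand and any gene filter, the sources used here give nothing. CPM was computed as 2 to the power of the value minus 1, and 100% of the values lay within 0.01 of a whole number of reads. Read counts cover counting error only, and 3 reads correspond to 0.176 to 0.214 CPM.

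Genes averaging under 1 CPM across the 6 libraries were left out (1335), and 12865 were tested. limma 3.58.1 in R 4.3.3 was fitted with group as the only term and a mean-variance trend, as a two-sided test with Benjamini-Hochberg adjustment over all tested genes and a threshold of 0.05. Differences are in log2(CPM + 1), where low genes show less change than in CPM. Standard errors and intervals come from the same fit. The script was tested on simulated data. Chi-square per gene was 1.25 to 2.10 between libraries of a group and 19.7 to 24.1 across groups, and no library was counted as a repeat of another.

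The 8 genes and the lists were chosen with earlier results of these data known. Named regulators are, per list, up to 3 called genes with the largest absolute difference and the most abundant gene, beside the 5 genes nearest to the highest and the lowest of the 8 genes. TUBB3, TUBB4A, TUBA1B, TUBB, TUBB4B, MAP1A, MZT2A, VASH1 and the marker genes named lie outside that rule and were added after their values were seen. Of 167 list entries, 143 matched the table, 1 by another symbol. Transcripts are from the GENCODE 29 basic set (GRCh38), 1 per gene, APPRIS principal first and then the longest, and 89.6% of tested genes had a 3′ UTR to search. Promoter windows are from RefSeq, the entry nearest to that transcript's start.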

Additional observations from a re-analysis of the deposited data

How the results depend on the processing

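Alternatives were a pseudocount of 0.1, median centring, voom on recovered reads, the replicate number as a term, no mean-variance trend, no filter on low values, and leaving out each library in turn. All 8 genes kept the sign of their difference under each alternative run on them, and MAP1B moved by more than its spread under voom, to 1.91. Of the regulator genes, 45 to 57 were called higher and 24 to 33 lower over all alternatives, and 65 of the 83 calls were shared without the mean-variance trend. With the replicate block, 54 rose and 33 fell. In this balanced layout the block cannot move a difference, so that of SETD5 was bound to stay at -0.59. Deviations of same-numbered libraries correlated at -0.011, 0.054 and 0.042, beside -0.0596 to 0.0215 for the other pairings. These values do not settle whether the numbers pair the libraries, and the block ended no regulator call. Neither PFDN5 nor ASPM had passed, and both changed sign when 1 control library was left out. PFDN5 ranged from -0.011 (without control replicate 1) to 0.036, and ASPM from -0.019 to 0.0069 (without control replicate 2), and the cause was not tested. The low depth of MAP7 and MAPRE3 limits what can be said of them.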
